A study of Mus musculus with 16 samples.

Results

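The unfolded protein response is represented here by 10 genes. Hspa5 encodes the chaperone BiP, Atf6, Ern1 and Eif2ak3 encode the stress sensors ATF6, IRE1 and PERK, Xbp1, Atf4 and Ddit3 encode transcription factors of the response, Herpud1 and Dnajb9 encode proteins of quality control in the endoplasmic reticulum (ER), and Wfs1 encodes wolframin. The genes were taken as a named list, and a region of accessible chromatin was assigned to a gene where it overlapped the gene body or the 3 kb before its start. Of 347712 autosomal regions, 119 belonged to these genes.

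The regions came from ATAC-seq, which marks open chromatin by the insertion of sequencing adapters with a transposase, on pancreatic islets (no treatment is named in the labels) of the 8 founder strains of the Diversity Outbred mice. The labels give 129S1_SvImJ (129), A_J (AJ), C57BL/6J (B6), NOD_ShiLtJ (NOD) and NZO_HlLtJ (NZO), which the study counts as classical strains, and CAST_EiJ (CAST), PWK_PhJ (PWK) and WSB_EiJ (WSB), which it counts as wild-derived. Each strain gave 1 female and 1 male sample of 50 islets, so 16 samples were compared and the spread within a strain also holds any difference between the sexes. The age of the animals and the number of animals behind a sample are not given in the sources used here.

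Secretory cells load their ER with newly made protein, and misfolded protein in the ER activates the 3 sensors. PERK phosphorylates the translation factor eIF2α, which slows protein synthesis and favours translation of ATF4, IRE1 splices Xbp1 mRNA into the form that encodes the active factor, and ATF6 is cut in the Golgi to release a transcription factor. Pancreatic beta cells make large amounts of proinsulin, and loss of PERK or of wolframin causes diabetes in humans.

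Peak lists held 77887 to 167051 autosomal peaks, and the median summit signal over shared regions was lowest in the PWK male (32) and highest in the CAST male (136). The lists carry no read totals, none were used here, and the depth behind a single value is therefore not known here. A signal below is therefore scaled, meaning that the summit signal of the highest peak in a region was divided by the sample's median over the 40940 regions called in all 16 samples. A scaled signal of 1 is that of the median shared region, and 0 stands for no listed peak, which does not show closed chromatin. Promoter regions stood above the other shared regions to a different extent in each sample. Their median, as log2(signal + 1) centred on all shared regions, was 1.37 in the 129 female and 1.35 in the NZO male, against 0.65 to 1.12 in the other 14 samples. These 2 samples had the highest signal at 8 of the 10 member promoters, so values are also given relative to the promoter median of the sample. Of the defining genes of beta cells, 7 of 7 had a promoter region called in all 16 samples, and Gcg, which encodes glucagon, did too. Of 10 acinar genes, 4 had a promoter region in any sample, and their summed scaled signal ranged from 0.395 in the NOD female to 1.98 in the NZO male. The NZO male was also highest for the endothelial genes, 3 of 3 with a region and summing from 0 to 0.764, and for the leukocyte genes, 2 of 4 with a region and summing from 0 to 0.709. Duct genes summed to 0.655 to 1.47, with the AJ male highest, and stellate and fibroblast genes to 0.277 to 1.40, with the 129 female highest. Whether cells other than islet cells contributed to the values below was not tested.

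All 10 genes had an accessible promoter in each of the 16 samples. So did 45 of the 49 other genes of the response taken up below. The share over all annotated promoters was not computed. The promoter region is the region of highest mean signal within 1 kb of an annotated start of the gene, and its level differed widely among the members. Eif2ak3 and Dnajb9 stood far above the rest, with means of 14.2 ± 2.25 and 12.9 ± 2.82 (SD over 16 samples). Among the 10828 promoter regions called in all samples they ranked 97 and 130 from the top. Wfs1 followed at 5.08 ± 1.11, Hspa5 at 4.26 ± 1.08, Ddit3 at 3.15 ± 0.659, Herpud1 at 2.44 ± 0.66, Atf4 at 2.27 ± 0.852, Atf6 at 2.06 ± 0.587 and Xbp1 at 1.71 ± 0.731. Ern1 was lowest, at 0.674 ± 0.258, and ranked 10013. Along this order, the step from Dnajb9 to Wfs1 was larger than the spread, since the lowest Dnajb9 value (8.18) lay above the highest Wfs1 value (7.55). The values of Eif2ak3 and Dnajb9 overlapped, and so did those of each neighbouring pair from Wfs1 to Ern1. When the strongest peaks of each list were kept in equal number, 77887 a sample, all 10 promoters were still called in all 16 samples. With the stronger part of each list alone, cut at its median, the Ern1 promoter was called in 14 samples and the other 9 in all 16.

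**Figure D1:**
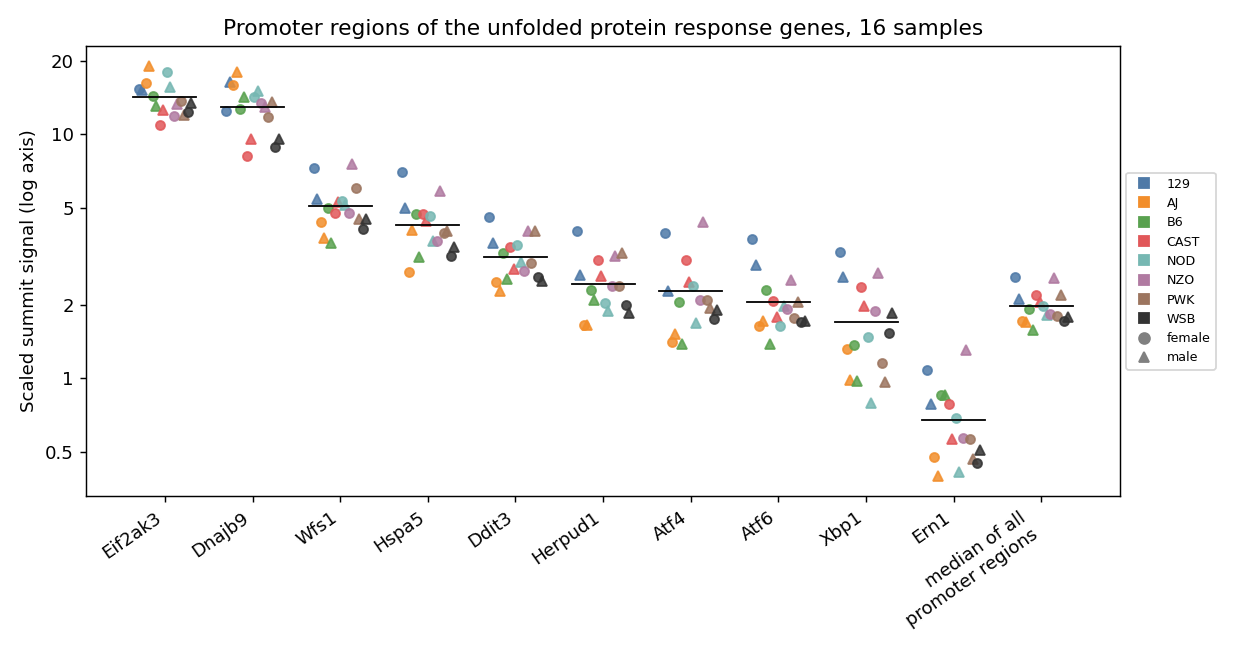
Scaled summit signal (log axis) at the promoter region of each member in the 16 samples, with colour for strain, circles for females, triangles for males and a bar for the mean, and at the right the median over all promoter regions of the same sample. Eif2ak3 and Dnajb9 lie above 8 in every sample and Ern1 lies between 0.4 and 1.31, while the 129 female and the NZO male lead at most of the other promoters and in the promoter median.

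The sensors differed most in level. Eif2ak3, the gene of PERK (chr6:70844515-70905245 on mm10, plus strand), had the strongest promoter, with 15.3 and 15.2 in the 129 female and male, 16.2 and 18.96 in AJ, 14.3 and 13.1 in B6, 10.9 and 12.6 in CAST, 18.0 and 15.7 in NOD, 11.8 and 13.4 in NZO, 13.6 and 12.0 in PWK and 12.4 and 13.4 in WSB. AJ was highest and CAST lowest, but the strains overlapped and the strain effect did not pass the threshold (adjusted p = 0.245, limma moderated F test). The summits of the 16 samples lay at positions -306 to -161 from the gene start, and the 250 bases before the RefSeq start hold 6 CCAAT boxes, the element bound by the factor NF-Y. The summits of the CAST female, the NOD male, the PWK female and both samples of NZO and WSB lie upstream of these bases. Any CCAAT on either strand occurs in 37.4% of the 32851 RefSeq promoters searched, counted over 300 bases. How many promoters hold 6 boxes was not computed. These bases, chr6:70844265-70844514 on GRCm38.p6, plus strand, are shown with the CCAAT boxes of both strands in capitals.
Eif2ak3 promoter: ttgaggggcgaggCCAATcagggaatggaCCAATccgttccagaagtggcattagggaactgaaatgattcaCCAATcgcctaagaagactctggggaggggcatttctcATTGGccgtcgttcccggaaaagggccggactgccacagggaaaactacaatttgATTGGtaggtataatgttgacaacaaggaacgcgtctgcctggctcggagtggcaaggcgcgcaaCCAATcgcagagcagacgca

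A further region of Eif2ak3 varied little in position. It lay in an intron, at chr6:70871120-70873058, with summits 27842 to 27852 bases past the start, and its scaled signal was 5.99 ± 0.853, from 4.73 in the NOD female to 7.95 in the NZO male. Its summit fell within 10 bases in all 16 samples. The strain effect was not past the threshold (adjusted p = 0.556, limma), and the strain means spanned 0.49 on the log2 scale. The 200 bases around the median summit, chr6:70872258-70872457, plus strand, are given because this is the strongest member region outside a promoter.
Eif2ak3 intron: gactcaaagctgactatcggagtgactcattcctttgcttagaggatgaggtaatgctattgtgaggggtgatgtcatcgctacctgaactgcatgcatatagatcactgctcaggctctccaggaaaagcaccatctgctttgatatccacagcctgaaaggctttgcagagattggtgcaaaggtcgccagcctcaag

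Like Eif2ak3, with its 26 regions, the other 2 sensors had long genes with many weak regions. Atf6 (chr1:170704674-170867771, minus strand) held 61 regions, of which 6 were called in all 16 samples, 28 in 2 to 15 samples and 27 in a single sample. Its promoter summits lay at positions -894 to -858 from the annotated start, inside a region that also overlaps the gene Gm9929, so the signal cannot be assigned to Atf6 alone. Both 129 samples (3.74 and 2.91) were above the other 14 there, which ran from 1.39 to 2.53, and the strain effect did not pass the threshold (adjusted p = 0.118, limma). The strongest Atf6 region was an intronic one at chr1:170740847-170742154, with 2.43 ± 0.527 and the highest values in both CAST samples (3.22 and 3.04, adjusted p = 0.268). Ern1 (chr11:106394650-106487852, minus strand) held 18 regions, 2 of them called in all 16 samples, the promoter and an intronic region at chr11:106438655-106439199 with 0.609 ± 0.281. Both passed the threshold for the deposited mean signal (adjusted p = 0.0173 and 0.0394, limma). For the summit signal they did not pass in the fit used for the values here (0.111 and 0.204). They did pass in some other settings of the summit signal, among them no centring (adjusted p = 0.0123 at the promoter, limma).

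The promoters of the transcription factor genes were at intermediate levels. Xbp1 (chr11:5520659-5525893, plus strand) had 1 region of 9144 bases that also overlaps Ccdc117. The signal of a region over several genes cannot be assigned to one of them, here and at the promoters below. The highest summit lay 198 to 240 bases after the start of Xbp1 in 13 samples. In the NOD male, the PWK female and the WSB male it lay 1474 to 1503 bases after that start. Those summits were 210 to 239 bases after another annotated start of Xbp1. Atf4 (chr15:80255184-80257541), which encodes the effector of the PERK branch, was lowest in the B6 male (1.39) and highest in the NZO male (4.36), with a median of 2.07, in a region that also overlaps Rps19bp1. Ddit3 (chr10:127290774-127296288), which encodes the pro-apoptotic factor CHOP, ran from 2.27 in the AJ male to 4.57 in the 129 female, with a median of 3.00. Both AJ samples (2.48 and 2.27) were below the other 14. Its region was 13722 bases wide and overlaps Mbd6, Mars and 2 predicted genes, with the summits at positions -156 to -77 from the start of Ddit3.

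Hspa5 and Herpud1 are textbook targets of ATF6 and XBP1, and their promoters hold the ER stress response elements. The element named ERSE consists of CCAAT and CCACG with 9 bases between them, and ERSE-II of ATTGG, 1 base and CCACG. On either strand, ERSE occurs in 39 of the 32851 promoters (0.119%) and ERSE-II in 12 (0.0365%). Of the 9 members with a sequence in the promoter table (Atf6 was not matched), Hspa5 alone held an ERSE and Herpud1 alone an ERSE-II, both on the strand of the gene. The elements are shown with their conserved parts in capitals, beside ERSE matches of 5 pathway genes that are not members, each written on the strand on which it matched.
Hspa5 ERSE: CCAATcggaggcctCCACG
Herpud1 ERSE-II: ATTGGgCCACG
Hsp90b1 ERSE: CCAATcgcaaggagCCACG
Calr ERSE: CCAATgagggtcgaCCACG
Dnajc3 ERSE: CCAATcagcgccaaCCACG
Creld2 ERSE: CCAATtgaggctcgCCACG
Syvn1 ERSE: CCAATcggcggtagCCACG

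Among 49 other genes of the response, listed for chaperones, ER-associated degradation and the PERK, ATF6 and IRE1 branches, 41 were in the promoter table. An ERSE was held by 9 of them, mostly chaperone genes. The Hspa5 element lies at chr2:34772025-34772043, at positions -65 to -47 from the RefSeq start. The Hspa5 summits lay 108 to 165 bases upstream of it and closer to another pair of CCAAT boxes, 9 to 23 bases away in the median. In Herpud1 the ERSE-II, at chr8:94386377-94386387, lay under the peak, with all 16 summits within 38 bases of it and a median distance of 5.5 bases. A match is a description of the letters and does not show that a factor was bound. The 250 bases before each RefSeq start follow, chr2:34771840-34772089 and chr8:94386179-94386428, both plus strand. Capitals mark the ERSE or ERSE-II parts and the CCAAT boxes, and in Herpud1 also a TGATGNAA element (CARE, bound by ATF4 with a partner), which 3.97% of promoters hold.
Hspa5 promoter: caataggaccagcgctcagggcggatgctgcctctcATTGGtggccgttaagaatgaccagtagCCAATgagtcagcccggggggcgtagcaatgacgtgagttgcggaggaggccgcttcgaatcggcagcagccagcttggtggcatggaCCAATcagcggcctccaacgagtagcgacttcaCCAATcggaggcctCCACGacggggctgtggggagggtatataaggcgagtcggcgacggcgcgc
Herpud1 promoter: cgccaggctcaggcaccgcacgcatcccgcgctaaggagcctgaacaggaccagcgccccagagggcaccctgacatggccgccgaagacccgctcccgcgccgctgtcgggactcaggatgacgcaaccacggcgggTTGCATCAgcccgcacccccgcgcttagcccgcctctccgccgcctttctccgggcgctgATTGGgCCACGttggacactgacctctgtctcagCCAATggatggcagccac

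The values at these promoters moved with the promoter median of the samples. Hspa5 had 7.02 and 4.99 in 129, 2.74 and 4.04 in AJ, 4.71 and 3.13 in B6, 4.72 and 4.397 in CAST, 4.64 and 3.65 in NOD, 3.64 and 5.84 in NZO, 3.95 and 4.00 in PWK and 3.18 and 3.47 in WSB, females first. The 129 female stood apart from the other females, and the strain effect was not past the threshold (adjusted p = 0.296, limma). It was past it for the deposited mean signal (0.00288) and with no centring (0.0261). At the Herpud1 promoter both AJ samples (1.66 and 1.65) were below the other 14, and the 129 female was highest at 4.02 (adjusted p = 0.0702, and 0.0106 with no centring). The Hspa5 region is 16000 bases wide and also overlaps Rabepk, and the Herpud1 promoter region also overlaps Gm15890. Across the 8 strain means, Pearson's r with the promoter median was 0.94 for Hspa5, 0.96 for Atf4, 0.94 for Wfs1 and 0.91 for Herpud1, but -0.30 for Eif2ak3 and -0.11 for Dnajb9. These are descriptions over 8 points that share their libraries and their centring.

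**Figure D2:**
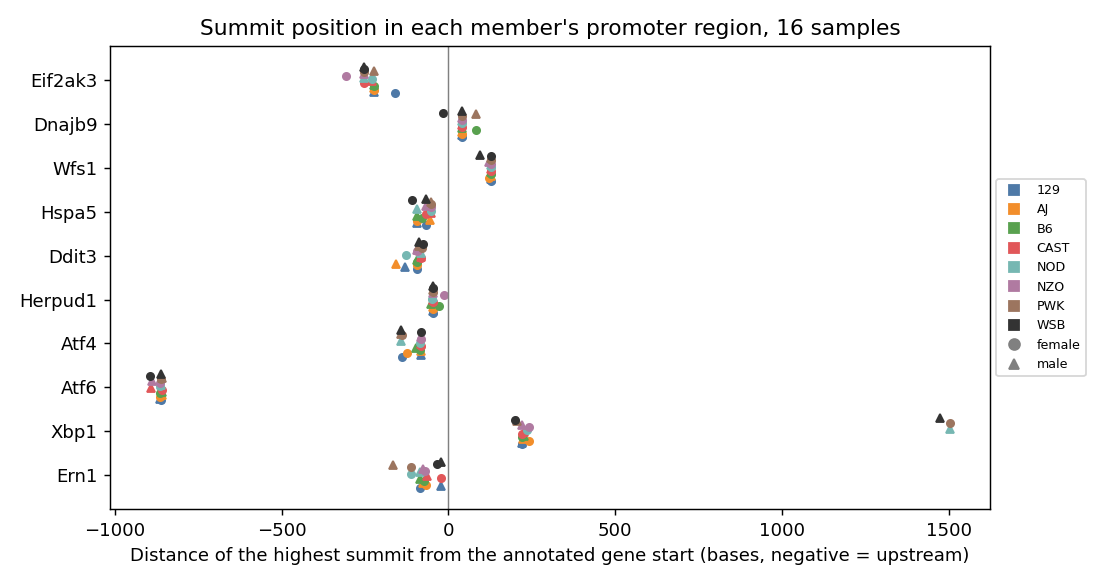
Distance in bases of the highest summit from the annotated gene start (horizontal axis, negative for upstream) in the promoter region of each member, with 1 point per sample, colour for strain and shape for sex. Most summits lie near the start, those of Atf6 lie at -894 to -858, and those of Xbp1 fall at 2 positions.

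Dnajb9 and Wfs1 had the remaining strong promoters. Dnajb9 encodes an ER co-chaperone of BiP. Its region (chr12:44201852-44211554) covers the gene and also overlaps Gm7370 and Mir5627. The summits lay between positions -17 and 83 from the GENCODE start of the gene. The 300 bases around the RefSeq start held 35 CpG dinucleotides, and 97.8% of promoters had a lower ratio of observed to expected CpG. All 9 matched members lay above the median CpG ratio of all promoters (0.384), from 0.535 in Xbp1 to 1.09 in Dnajb9. Wfs1 (chr5:36966104-36989205, minus strand) ran from 3.59 in the B6 male to 7.55 in the NZO male, with a median of 4.87. The 250 bases before the RefSeq start of Dnajb9, chr12:44210069-44210318, minus strand, are shown because its promoter differed between strains. This start (44210068) lies downstream of the GENCODE start (44210326), so the summits other than that of the WSB female fall within these bases. The capitals mark the CCAAT box.
Dnajb9 promoter: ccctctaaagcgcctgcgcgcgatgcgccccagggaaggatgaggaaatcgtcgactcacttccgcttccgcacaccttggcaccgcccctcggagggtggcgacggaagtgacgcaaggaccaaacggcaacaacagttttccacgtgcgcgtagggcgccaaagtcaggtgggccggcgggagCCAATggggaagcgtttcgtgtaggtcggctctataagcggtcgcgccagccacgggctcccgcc

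The genes also differed in how far their accessibility was shared among samples. In all, 19 of the 119 member regions (15.97%) were called in all 16 samples, against 11.8% of all autosomal regions. A further 56 (47.1%) were called in 2 to 15 samples and 44 (37.0%) in a single sample, against 41.9% and 46.4% of all regions. Hspa5, Xbp1 and Ddit3 had 1 region each, called everywhere, while Eif2ak3 had 3 of 26. The number of member regions called ranged from 21 in the AJ male to 72 in the CAST female. In 14 of the 16 samples the share of member regions called was larger than the share of all regions called. Regions called in both samples of 1 strain and nowhere else were found 3 times, in an Atf6 intron (chr1:170805963-170806345, B6, 0.286 and 0.241), in an Eif2ak3 intron (chr6:70888800-70888999, B6, 0.155 and 0.181) and in a Wfs1 intron (chr5:36977892-36978023, CAST, 0.16 and 0.206). All 3 were weak. They made up 2.52% of the member regions, and 4.40% of all regions had this pattern. No member region was missing in both samples of 1 strain and called in all others, a pattern of 0.735% of all regions.

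**Figure D3:**
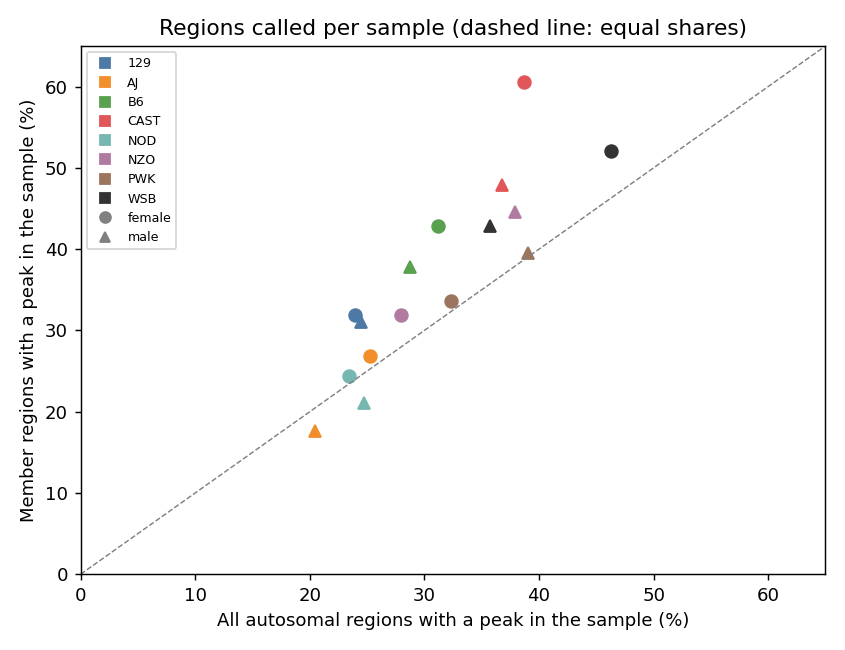
Share of the 119 member regions with a peak in each sample (vertical axis, %) against the share of all 347712 regions with a peak in the same sample (horizontal axis, %), with a dashed line for equal shares. The shares rise together, and 14 of 16 samples lie above the line, with the CAST female highest at 60.5%.

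To ask which member regions differed between strains, the 19 regions called in all samples were read out of a limma fit over all 40940 such regions. A strain effect at an adjusted p under 0.05 was found in 4 of the 19 (21.1%), against 35.7% of all tested regions. Among promoters it was found in 2 of 10, against 22.4% of tested promoter regions. The count of 4 was 2 for the sum over the peaks of a region, 2 when centred on promoter regions, and 2 without either sample of AJ, CAST, NOD or WSB. It was 12 with no centring, where 63.2% of all regions passed, and 9 without the NZO female, where 60.1% did. For the sum over peaks the share of all regions was 32.9%, and when centred on promoter regions it was 23.1%. Without a sample of AJ, CAST, NOD or WSB the share of all regions was also lower. Without both the 129 female and the NZO male the count was 5, beside 41.1% of all regions. The strain means of the 10 member promoters spanned a median of 0.95 on the log2 scale, beside 0.92 over all promoter regions tested. In 5 of the 19 regions both samples of a strain lay above the other 14, and in 3 they lay below. Over all tested regions these shares were 21.0% and 25.7%.

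The firmest difference was at an intronic region of Atf6. It lay at chr1:170771461-170771890, with summits 96012 to 96125 bases past the start of the gene, and was low in B6, intermediate in most classical strains and CAST, and high in PWK and WSB. The scaled signal was 0.202 and 0.241 in the B6 female and male, 0.431 and 0.42 in 129, 0.631 and 0.491 in AJ, 0.453 and 0.471 in CAST, 0.395 and 0.341 in NOD, 0.432 and 0.818 in NZO, 1.02 and 0.875 in PWK and 0.764 and 1.10 in WSB. Both B6 samples were below the other 14. The strain effect had an adjusted p of 0.00279 (limma moderated F test), with 0.00133 to 0.0205 under 9 other settings and no more than 0.0117 when any sample was left out. With equal numbers of the strongest peaks the region was not called in all 16 samples, so it was not tested there. The strain means spanned 2.04 on the log2 scale. The signal was low, and the B6 peaks were 21 and 50 bases wide, against 113 to 394 in the other samples. The reads of all strains had been aligned to the B6 reference. This region held no repeat-masked bases, and its reference sequence around the median summit, chr1:170771583-170771782, minus strand, reads as follows.
Atf6 intron: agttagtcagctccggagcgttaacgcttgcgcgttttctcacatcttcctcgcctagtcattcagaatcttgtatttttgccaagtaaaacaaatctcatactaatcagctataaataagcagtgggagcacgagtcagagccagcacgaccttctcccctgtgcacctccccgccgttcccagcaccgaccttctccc

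Xbp1 was the promoter with the widest difference between strains. Its signal was 3.31 and 2.61 in the 129 female and male, 1.32 and 0.982 in AJ, 1.37 and 0.976 in B6, 2.37 and 1.99 in CAST, 1.48 and 0.793 in NOD, 1.89 and 2.69 in NZO, 1.16 and 0.969 in PWK and 1.53 and 1.85 in WSB. The strain means of 129 (2.96 ± 0.496, SD, n = 2), NZO (2.29 ± 0.567) and CAST (2.18 ± 0.271) were above those of the other 5 strains (adjusted p = 0.00883, limma), and no strain stood clear of all other samples. The effect remained past the threshold relative to the promoter median (adjusted p = 0.0302) and without the 129 female and the NZO male (0.0156). It was not past the threshold for the deposited mean signal (0.656) or for the sum over the peaks in the region (0.302), and in 3 samples the highest summit lay at the second position described above.

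Dnajb9 was lowest in CAST and WSB. Its promoter had 12.4 and 16.3 in the 129 female and male, 15.95 and 18.0 in AJ, 12.7 and 14.3 in B6, 8.18 and 9.57 in CAST, 14.3 and 15.1 in NOD, 13.5 and 13.0 in NZO, 11.8 and 13.5 in PWK and 8.87 and 9.57 in WSB. The 4 samples of CAST and WSB were below the other 12, of which the lowest was 11.8. The strain effect had an adjusted p of 0.0340 (limma), but it was not past the threshold relative to the promoter median (0.0824), over regions called in at least 12 samples (0.0546), with no centring (0.222) or after quantile normalization (0.587). It was also lost when either sample of AJ, CAST, NOD or WSB was left out, with adjusted p up to 0.129. The median summit signal over shared regions was 106 and 136 in CAST and 106 and 88 in WSB, against 32 to 86 in the other 12 samples, and its part in this difference was not tested.

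A region at the end of Herpud1 was highest in 129. Its 9725 bases (chr8:94393660-94403384) overlap the 3′ end of the gene, and the summits lay 2002 to 2463 bases past the end of the gene. It had 2.43 and 1.45 in the 129 female and male, 0.80 and 0.618 in AJ, 1.24 and 0.759 in B6, 1.29 and 1.09 in CAST, 0.686 and 0.61 in NOD, 0.852 and 1.44 in NZO, 0.677 and 0.938 in PWK and 0.84 and 0.568 in WSB. Both 129 samples were above the other 14, with the NZO male close behind (adjusted p = 0.0327, limma). The effect was not past the threshold relative to the promoter median (0.0579), for the deposited mean signal (0.157), for the sum over peaks (0.139), over regions called in at least 12 samples (0.112) or without the 129 female and NZO male (0.0552). It was also lost when 9 of the 16 samples were left out in turn, with adjusted p up to 0.130 without the 129 female.

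**Figure D4:**
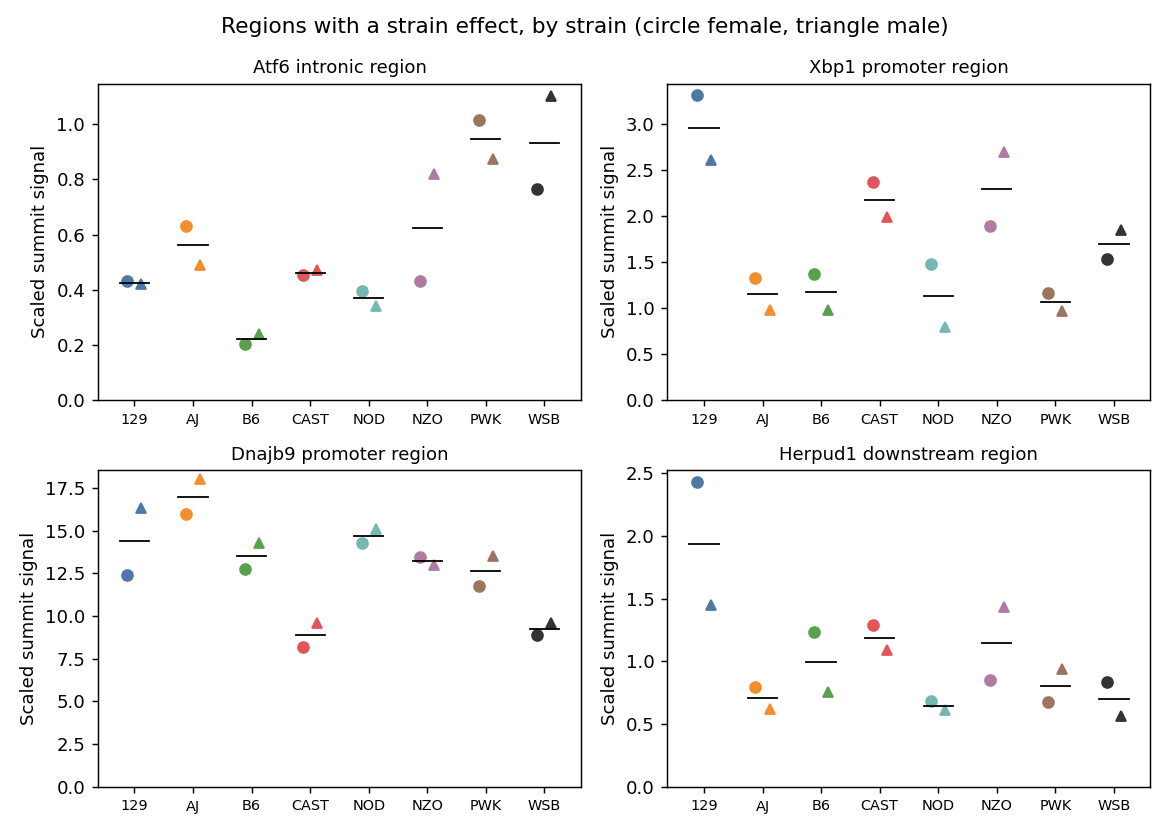
Scaled summit signal (vertical axes, from 0) in the 4 member regions with a strain effect, by strain, with circles for females, triangles for males and bars for the mean of both. B6 lies lowest at the Atf6 intronic region, CAST and WSB lie lowest at Dnajb9, and 129 lies highest at Xbp1 and at the end of Herpud1.

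With the signal taken relative to the promoter median of each sample, 2 of the 19 member regions had a strain effect, the Atf6 intronic region and the Xbp1 promoter, against 23.1% of all tested regions. On the ordinary scale the most alike promoters over the 8 strain means were Ddit3 and Wfs1 (r = 0.92), Hspa5 and Atf6 (0.91) and Hspa5 and Ddit3 (0.90). On the promoter-relative scale the same pairs had r of 0.67, 0.75 and 0.59, and the most alike pair was Eif2ak3 and Dnajb9 (0.85, and 0.80 on the ordinary scale). The least alike pair was Eif2ak3 and Herpud1, with r of -0.55 on the ordinary scale and -0.85 on the promoter-relative one.

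**Figure D5:**
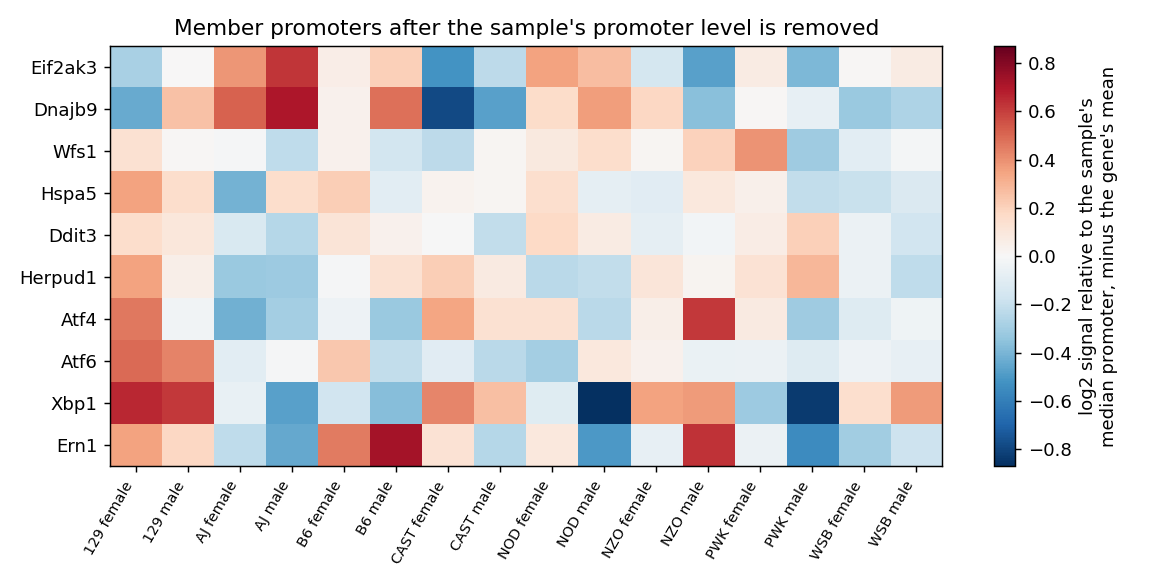
Log2 signal at each member promoter relative to the sample's median promoter, after subtraction of the gene's mean over the 16 samples (colour, red above and blue below the mean). Eif2ak3 and Dnajb9 are above their means in AJ and below them in CAST, and Xbp1 is above its mean in both 129 samples.

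No member region differed between the sexes at the threshold. None of the 19 passed it in either direction, and none had an unadjusted p under 0.05 (limma, sex coefficient with strain in the model). Over all tested regions 0% passed with females higher and 0% with females lower, and 1621 had an unadjusted p under 0.05. The female minus male difference at the member regions ranged from -0.16 at Dnajb9 to 0.23 at Xbp1 on the log2 scale, with standard errors of 0.11 to 0.25, and 15 of the 19 values were above 0.

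Wild-derived and classical strains were compared on the 8 strain means, and none of the 19 regions passed the threshold. Over all tested regions 0.00733% passed with the wild-derived strains higher and 0.0269% with them lower. The unadjusted p was under 0.05 for 2 member regions. Dnajb9 was lower in the wild-derived strains by a log2 difference of -0.52 ± 0.21 (SE, adjusted p = 0.357, limma). The centred log2 mean of PWK (3.63) was below that of every classical strain. It lay nearer to the lowest of them, NZO (3.71), than to CAST (3.13) and WSB (3.19). The Atf6 intronic region was higher in the wild-derived strains by 0.82 ± 0.34 (adjusted p = 0.367), where CAST lay with the classical strains.

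The other genes of the response were read out of the same fit. Of their 334 regions, 79 were called in all samples and 19 of these (24.1%) had a strain effect, beside 35.7% of all tested regions. Of 45 promoters, 6 (13.3%) had one, beside 22.4%, including those of Canx, Syvn1 and Vldlr. Relative to the promoter median, 2 of the 45 remained past the threshold, Syvn1 and Vldlr. In ER-associated degradation 8 of 19 regions and 2 of 10 promoters had a strain effect, and among chaperones 5 of 29 regions and 1 of 17 promoters. In the PERK and ATF4 branch the counts were 1 of 11 regions and 1 of 9 promoters, in the ATF6 and CREB3 group 4 of 16 and 2 of 6, and in the IRE1 branch 1 of 4 and 0 of 3. None of the 79 regions passed the threshold for sex or for strain class. Sel1l and Edem1, both of ER-associated degradation, had promoter means of 16.4 ± 3.70 and 11.3 ± 2.16, beside 14.2 for Eif2ak3 and 12.9 for Dnajb9. The chaperone genes Hsp90b1 (6.25 ± 1.21) and Dnajc3 (6.59 ± 1.06) were above Hspa5 in mean signal.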

How the data were processed

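ATAC-seq was performed on pancreatic islets in 1 female and 1 male sample from each of 8 strains. Per the submitters' processing notes and the study's methods, the authors trimmed reads with cutadapt 2.0, aligned those of all strains to mm10 with Bowtie2 2.3.4.1, filtered them with SAMtools and Picard 2.9.2 and called peaks sample by sample using MOSAiCS (false discovery rate 0.05). Whether read ends were shifted for the transposase cut is not given in the sources used here. The deposited signal at the summit of a peak was not scaled to depth. The deposited mean signal, whose averaging is not given in the sources used here, served as an alternative. Strain lists made from both sexes were not used.

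Autosomal peaks were merged where they overlapped or touched and annotated with GENCODE M21 on GRCm38, the assembly of mm10. Values for tests were log2(signal + 1), centred on the sample's median over the regions called in all 16 samples, so a difference is on that scale and is understated where signal is low. limma 3.58.1 (R 4.3.3) was fitted to all these regions, with strain and sex in the model and Benjamini-Hochberg adjustment at 0.05, and strain classes were compared on strain means. The fits were tested on simulated data. p-values measure the spread between these samples, of which each strain has 2. RefSeq promoters (250 bases before and 50 from the start, GRCm38.p6) were searched on both strands.

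Regions named in the text are each member's promoter region, its strongest other region, regions past a threshold, and those called in 1 strain alone. Other pathway genes named, and the elements shown for them, were chosen after their values were seen. Members, lists and tests were chosen with earlier results of these data known. Alternatives were another pseudocount, no centring, quantile normalization, the mean signal, the sum over peaks, regions called in 12 or more samples, equal numbers of peaks, no sex or no strain term, and each sample left out. Centring on promoter regions and leaving out the 129 female with the NZO male were added after the data were seen.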

Additional observations from a re-analysis of the deposited data

Results flagged for a closer look

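In 20 groups (10 member promoters in the 8 females and in the 8 males), a sample was flagged where its gap to the nearest other sample, as a share of the range, was above Dixon's critical value for 8 samples at the 95% level. The groups of a sex share the same 8 libraries and are not independent, so the chance rate gives no measure of an excess. Chance flags about 1 in 20 independent groups, and 4 groups were flagged here. In females these were the 129 sample at the Hspa5 promoter, with a scaled signal of 7.02, and at the Atf6 promoter, with 3.74. In males they were the NZO sample at the Atf4 promoter, with 4.36, and at the Wfs1 promoter, with 7.55. The same 2 samples had the highest medians over all promoter regions, and the cause was not tested.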

How the results depend on the processing

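The number of member regions with a strain effect was 4. It was 12 with no centring, 2 for the sum over the peaks of a region and 2 when centred on promoter regions, and 2 to 9 when each sample was left out in turn, with 9 without the NZO female and 2 without either sample of AJ, CAST, NOD or WSB. It lay between 3 and 5 under the other alternatives, except 6 without the NZO male. With 1 sample of a strain left out, the lone sample was assumed to vary like the others. The share of all tested regions with a strain effect was 63.2% with no centring, 18.1% for regions called in at least 12 samples, and 18.7% to 60.1% when samples were left out. No member region passed for sex or class under any alternative. For class, 3 regions were higher and 11 lower over all tested regions, against 38 and 35 with no centring and none when centred on promoter regions. The number of member regions called in all samples was 19, with 14 to 20 under the alternatives. The sex test compared females with males within strains, and the labels give no other pairing. Read depth, not used here, limits all values.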
